A study of Mus musculus with 14 samples.

Results

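Ocy454 is an osteocyte-like mouse cell line that divides at 33 °C and differentiates at 37 °C, where its thermosensitive large T antigen is inactivated. The 10 genes described here were chosen by name as a functional group, with earlier results of these data known. They are the osteocalcin genes Bglap, Bglap2 and Bglap3, the Gla protein genes Mgp and Gas6, the vitamin K enzyme genes Ggcx and Vkorc1, and the vitamin D genes Vdr, Cyp24a1 and Rxra. All 10 were found among the 39179 genes of the differentiation table and among the 35886 genes summed from transcripts in the sorted libraries. Ocy454 cells were collected at day 1, day 7, day 10 and day 14 of differentiation at 37 °C in 2 biologic replicates each, which gave 8 libraries. Cells at 17 days, by the labels and the study's methods, were labelled for surface CD61, the integrin beta-3 subunit encoded by Itgb3. The study's results text gives another number of days. The 10% brightest (CD61high) and 10% dimmest (CD61low) live cells were collected in 3 replicates each, which gave 6 libraries. By the study's methods both fractions come from 3 independent groups of cells, and the main test did not pair them. All cells were grown in MEM alpha with 10% FBS, and no added vitamin K or vitamin D is named in the sources used here. The data address how the transcriptome moves with time in differentiation and with the level of the maturity marker CD61. All 14 libraries come from 1 cell line, so the p-values below measure the spread between cultures or sorts of that line.

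Gla proteins carry gamma-carboxyglutamate, a modified residue that binds calcium and mineral. GGCX, the gamma-glutamyl carboxylase of the endoplasmic reticulum, makes this residue with reduced vitamin K as its cofactor, and VKORC1 returns the oxidized vitamin to the reduced form. Osteocalcin, the product of the Bglap genes, is the abundant Gla protein of bone matrix and a classic product of mature osteoblasts and osteocytes, whereas matrix Gla protein (MGP) inhibits calcification of cartilage and vessels and GAS6 is a ligand of the TAM receptor kinases. The vitamin D receptor (VDR) binds DNA as a heterodimer with retinoid X receptors such as RXRA. CYP24A1, the 24-hydroxylase that inactivates the hormone, is the textbook induced target of VDR.

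The 3 osteocalcin genes lie next to each other on 1 strand and are near-identical copies, which limits how far reads can be assigned to one of them. In GRCm39 with the GENCODE M39 annotation they are the protein-coding genes Bglap at chr3:88290808-88291771, Bglap2 at chr3:88285043-88286060 and Bglap3 at chr3:88275923-88280052, all on the minus strand. The coding sequences of Bglap and Bglap2 are 285 bases long and differed at 4 bases, an identity of 98.6%, with 1 run of 241 identical bases. Bglap and Bglap3 differed at 13 bases (95.4% identity), and Bglap2 and Bglap3 at 9 (96.8%). The last 46 codons, which encode the mature Gla-containing peptide, are printed to show how few bases separate the copies. Capitals mark bases that differ from Bglap, 1 in Bglap2 and 8 in Bglap3.
Bglap: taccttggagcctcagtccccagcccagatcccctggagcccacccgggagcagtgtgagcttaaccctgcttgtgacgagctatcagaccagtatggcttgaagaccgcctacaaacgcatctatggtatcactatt
Bglap2: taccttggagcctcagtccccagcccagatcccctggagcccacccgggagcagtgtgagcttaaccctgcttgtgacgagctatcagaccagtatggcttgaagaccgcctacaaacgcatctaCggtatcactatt
Bglap3: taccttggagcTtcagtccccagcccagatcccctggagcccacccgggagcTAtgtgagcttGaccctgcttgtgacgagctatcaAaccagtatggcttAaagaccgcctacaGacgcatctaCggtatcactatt
Of the 31-base words in the main Bglap transcript, 80.5% also occurred in the Bglap2 transcript. Of those in the Bglap2 transcript, 86.7% occurred in at least one of the other copies, against 36.8% of those in the Bglap3 transcript. The osteocalcin genes are therefore given both singly and as a sum.

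The 150 bases before a start site are shown for Bglap (chr3:88384467-88384616, minus strand, RefSeq with GRCm38.p6 coordinates) and for Bglap3 (chr3:88372742-88372891, minus strand, same build), to show which letters of Bglap a motif search matched. Bglap3 has 3 start sites in this table, of which the one farthest upstream is shown, and none for Bglap2 was matched. Whether the motifs bear on the levels of these genes was not tested. Capitals mark matches to ACCACA, the core of the RUNX2 element known as OSE2, to TTACATCA, the letters of the OSE1 element bound by ATF4, and to TATAAA.
Bglap: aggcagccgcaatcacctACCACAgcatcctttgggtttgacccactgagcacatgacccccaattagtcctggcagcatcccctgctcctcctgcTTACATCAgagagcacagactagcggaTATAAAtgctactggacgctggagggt
Bglap3: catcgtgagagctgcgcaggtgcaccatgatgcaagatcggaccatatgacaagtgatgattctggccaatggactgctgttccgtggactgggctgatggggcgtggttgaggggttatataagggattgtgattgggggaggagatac
In Bglap the 3 matches began 132, 54 and 27 bases before the start site. The motifs were searched on both strands of RefSeq windows that run from 250 bases before to 50 bases after each start site. Of 32851 such windows, 16.8% held ACCACA, 1.10% held TTACATCA and 13.6% held TATAAA. The DR3 vitamin D response element, 2 half-sites in 1 direction with 3 bases between them, was searched with 8 forms of the half-site and was in 0.256% of windows. Windows were matched for 7 of the 10 genes: Bglap, Bglap3, Gas6, Ggcx, Vkorc1, Vdr and Rxra. Among the windows of these genes, all 3 of Bglap3 included, the matches in Bglap were the only ones for any of the 4 motifs. Bglap2, Mgp and Cyp24a1 were not matched.

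The other genes lie apart from one another, in GRCm39: Mgp at chr6:136849433-136852821 (minus strand), Gas6 at chr8:13515371-13544824 (minus), Ggcx at chr6:72391266-72410569 (plus), Vkorc1 at chr7:127490557-127494821 (minus), Vdr at chr15:97752306-97808511 (minus), Cyp24a1 at chr2:170324628-170339065 (minus) and Rxra at chr2:27566452-27653330 (plus). All are protein coding. Ggcx shares 791 exonic bases with Mat2a on the opposite strand, which averaged 196 CPM (read counts scaled to library size) over the days, and Cyp24a1 shares 83 exonic bases with Pfdn4, which averaged 23.4 CPM. Vkorc1 shares 353 exonic bases with Prss53 (0.923 CPM) and 401 with Gm21974 (0.0 CPM), both on its own strand. On the opposite strand, Gas6 shares 154 exonic bases with Tmem255b (0.0126 CPM) and Vdr shares 124 with Gm62301. Whether strand was used in counting is not given in the sources used here, so reads in bases shared between strands cannot be told apart. Strand would not separate reads in the bases that Vkorc1 shares on its own strand.

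The differentiation libraries held 27518605 to 34311238 reads and the sorted libraries 18815602 to 19220064 estimated counts. Osteoblast and osteocyte markers, 11 genes, summed to between 26616 and 36632 CPM over the days. Most of that sum was Col1a1, which encodes a chain of type I collagen, with day means of 34709, 27552, 21676 and 25243 CPM. Other members were higher at day 14 than at day 1 by their means, with 0.959 and 54.9 CPM for Dmp1, 0.964 and 93.9 CPM for Phex, 221 and 4274 CPM for Ibsp, 412 and 1676 CPM for Alpl and 130.1 and 664 CPM for Sp7. Sost, the sclerostin gene, had no reads at day 1 and 17.7 CPM at day 14. Pdpn, the podoplanin gene, was lower at day 14 by its means, which were 28.2, 22.6, 16.6 and 19.3 CPM from day 1 to day 14. In the sort they summed to between 17670 and 21603 CPM in CD61low and between 50131 and 52864 CPM in CD61high libraries, where Fgf23 stayed under 0.1 CPM in both. Among markers of other cell types, chondrocyte genes summed to 67.0 to 122 CPM over the days, to 37.6 to 47.3 CPM in CD61low and to 97.2 to 113 CPM in CD61high libraries, with Matn1 under 0.1 CPM throughout. Vascular smooth muscle genes, which matter here because such cells express Mgp and Gas6, summed to 1736 to 1752 CPM at day 1, 201.5 to 203.8 CPM at day 7, 51.5 to 63.8 CPM at day 10 and 265 to 284 CPM at day 14, with Cnn1 under 0.1 CPM at each. Most of that sum was Acta2, with day means of 1452, 140.3, 34.6 and 194 CPM, while Des was at 0.691 CPM at day 1 and 3.48 CPM at day 14. In the sort they summed to 249 to 304 CPM in CD61low and 238 to 310 CPM in CD61high libraries, which overlap. Their part in the results was not tested. Macrophage genes did not exceed 4.93 CPM over the days and were at 12.3 to 15.4 CPM in CD61low and 7.65 to 8.68 CPM in CD61high libraries. Adipocyte genes stayed between 10.6 and 30.6 CPM, endothelial genes at or below 0.861 CPM and hepatocyte genes at or below 0.188 CPM. In such bulk libraries, fewer cells of a type and less RNA per cell cannot be told apart.

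Osteocalcin RNA was nearly absent at day 1, rose through day 10 and was lower again at day 14. Bglap was at 0.827 and 0.533 CPM in the day 1 libraries, 7.92 and 8.41 CPM at day 7, 53.8 and 54.4 CPM at day 10, and 22.6 and 22.1 CPM at day 14. No library of one day overlapped with those of another, and the day 10 mean was 79.6-fold the day 1 mean. Bglap2 followed with 0.207 and 0.220 CPM, then 3.12 and 3.84 CPM, then 22.0 and 22.7 CPM, and finally 10.99 and 11.99 CPM. Its day 10 mean was 105-fold its day 1 mean, which rests on 7 reads in each day 1 library. Bglap3 stayed far lower, with 0.148 and 0.0941 CPM at day 1, 0.870 and 0.704 CPM at day 7, 1.48 and 1.64 CPM at day 10, and 1.22 and 0.581 CPM at day 14. Its libraries of day 14 and day 7 overlapped, and those of the other neighbouring days did not. The 3 genes together averaged 1.01 ± 0.236 CPM (SD, n = 2) at day 1, 12.4 ± 0.740 CPM at day 7, 78.0 ± 1.00 CPM at day 10 and 34.7 ± 0.139 CPM at day 14.

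**Figure D1:**
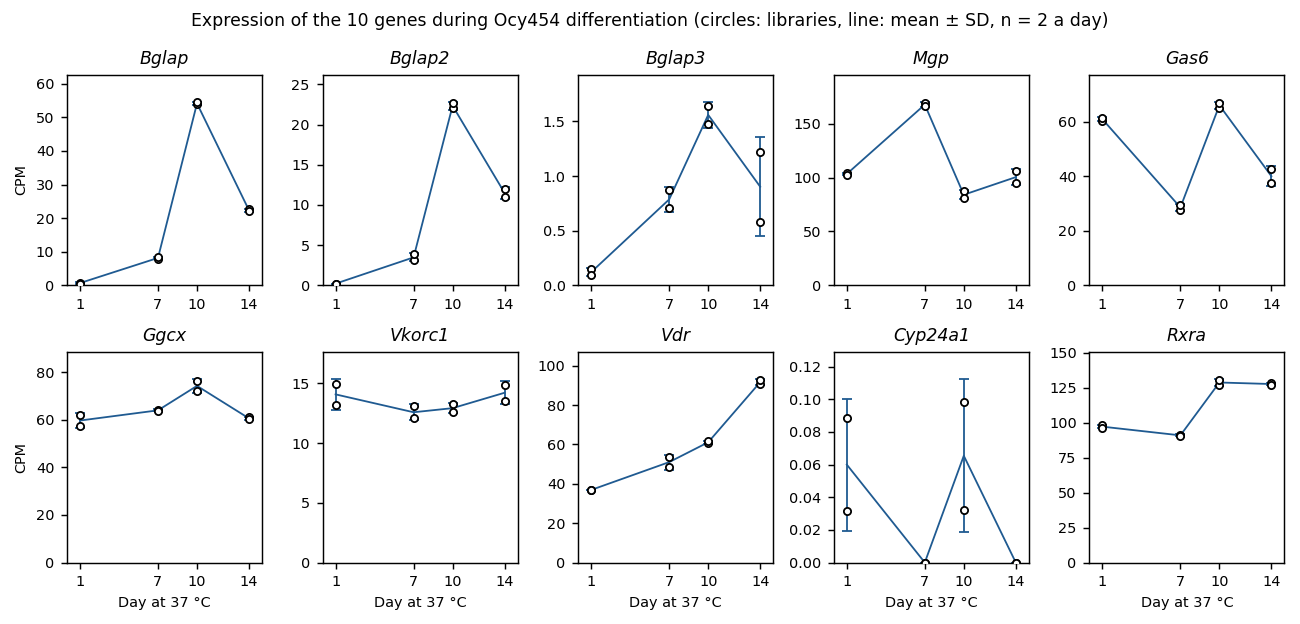
CPM of each of the 10 genes (vertical axes, from 0, scaled to the gene) against days at 37 °C (horizontal axes); circles are single libraries and lines join daily means ± SD of 2 libraries. Bglap peaks at 54.1 CPM at day 10, Mgp at 168 CPM at day 7, Vdr is highest at day 14 with 91.7 CPM, and Cyp24a1 stays below 0.1 CPM.

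A gene was called where limma's Benjamini-Hochberg adjusted p over the 12725 genes tested was below 0.01 and its Log2FC, fitted on log2(CPM + 1), lay beyond 1 in either direction. That scale understates the change of genes near or under 1 CPM. Consecutive comparisons share the libraries of the day between them. From day 1 to day 7, Bglap rose by a Log2FC of 2.45 ± 0.10 (standard error, limma adjusted p = 6.01e-18) and Bglap2 by 1.88 ± 0.11 (limma adjusted p = 8.27e-14). From day 7 to day 10 they rose again, Bglap by 2.59 ± 0.10 (limma adjusted p = 2.07e-17) and Bglap2 by 2.39 ± 0.11 (limma adjusted p = 2.89e-15). From day 10 to day 14 Bglap fell by 1.24 ± 0.10 on the log2 scale (limma adjusted p = 2.6e-11), whereas Bglap2 had a Log2FC of -0.90 ± 0.11 (limma adjusted p = 1.58e-07) and was not called. Whether the drop of Bglap differed from that of Bglap2 was not tested. At day 14 both were still above day 1, with Log2FC of 3.80 ± 0.10 for Bglap and 3.36 ± 0.11 for Bglap2. The edgeR test of recovered reads, which does not add 1 CPM to each value, gave 3.61 for Bglap and 4.04 for Bglap2 from day 1 to day 7 and 5.06 and 5.76 from day 1 to day 14. The order of the 2 genes in size of change thus depended on the scale, and their difference was not tested. The sum of the 3 genes had Log2FC of 2.74, 2.56 and -1.15 over the 3 steps and 4.15 from day 1 to day 14, each with a standard error of 0.09 and each called.

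Bglap3 was not called at any step on this scale, with Log2FC of 0.67 ± 0.16 from day 1 to day 7 (limma adjusted p = 0.000829) and 0.74 ± 0.16 from day 1 to day 14 (limma adjusted p = 0.000224). These values rest on 5 and 3 reads at day 1, and the call depended on the scale. With a pseudocount of 0.1 the Log2FC was 2.01 at day 7 and 2.12 at day 14, and the edgeR test of recovered reads gave 2.71 and 2.93, all of which were called.

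Mgp followed another course and was highest at day 7. It was at 104.1 and 102.6 CPM at day 1, 169 and 166 CPM at day 7, 87.1 and 81.1 CPM at day 10, and 106 and 95.2 CPM at day 14. The libraries of day 1 and day 14 overlapped and the other neighbouring levels did not. The difference of day 7 from day 1 was a Log2FC of 0.69 ± 0.05 (limma adjusted p = 9.89e-13), short of the fold threshold. The difference of day 10 from day 7 was -0.99 ± 0.05 (limma adjusted p = 3.14e-15), just inside the threshold. It was called lower, with -1.03, after quantile normalization, with -1.07 in the edgeR test of recovered reads, with -1.003 without day 7 replicate 2 and with -1.04 without day 10 replicate 1. From day 1 to day 14 Mgp had a Log2FC of -0.04 ± 0.05 (limma adjusted p = 0.415), which the spread between libraries covers.

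Gas6 alternated between days. It was at 60.3 and 61.4 CPM at day 1, 27.6 and 29.4 CPM at day 7, 65.1 and 66.8 CPM at day 10, and 37.4 and 42.6 CPM at day 14, with no overlap between days. Gas6 fell by 1.07 ± 0.06 on the log2 scale from day 1 to day 7 (limma adjusted p = 1.09e-14) and rose by 1.18 ± 0.06 from day 7 to day 10 (limma adjusted p = 6.91e-15). The later difference, day 14 against day 10, was -0.71 ± 0.06 (limma adjusted p = 9.14e-11) and was not called. The highest daily mean was 2.31-fold the lowest.

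The vitamin K enzyme genes moved little. Ggcx, the carboxylase, was at 57.5 and 61.9 CPM at day 1, 64.2 and 63.7 CPM at day 7, 72.3 and 76.3 CPM at day 10, and 61.0 and 60.2 CPM at day 14. Day 10 stood above all other days, by 1.24-fold over day 1, and the libraries of days 1 and 14 overlapped. Vkorc1, the epoxide reductase, was at 14.97 and 13.17 CPM, then 12.1 and 13.1 CPM, then 13.2 and 12.6 CPM, then 14.9 and 13.5 CPM, so each day overlapped with the next in level. Neither gene was called at any step. The Log2FC of day 14 against day 1 was 0.02 ± 0.05 for Ggcx (limma adjusted p = 0.690) and 0.01 ± 0.09 for Vkorc1 (limma adjusted p = 0.892). While the osteocalcin sum differed 77.0-fold between its highest and lowest day, Ggcx differed 1.24-fold and Vkorc1 1.13-fold.

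Vdr was higher at each later day. It was at 37.0 and 36.8 CPM at day 1, 48.4 and 53.7 CPM at day 7, 60.7 and 61.6 CPM at day 10, and 90.6 and 92.7 CPM at day 14, with no overlap between days. The single steps had Log2FC of 0.46, 0.26 and 0.58, each with a standard error of 0.05 and a limma adjusted p of at most 0.000138, and none passed the fold threshold. From day 1 to day 14 Vdr rose by 1.29 ± 0.05 (limma adjusted p = 7.75e-18), a 2.48-fold ratio of the means. Rxra, its partner, was at 98.1 and 96.3 CPM at day 1 and 91.5 and 90.4 CPM at day 7, against 127 and 130 CPM at day 10 and 128 and 127 CPM at day 14. Days 10 and 14 overlapped. The Log2FC of day 10 against day 7 was 0.50 ± 0.04 (limma adjusted p = 7.29e-11), and Rxra was not called in any comparison of days.

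Cyp24a1 was at or near 0 throughout. It had 3 reads and 1 read in the day 1 libraries, 3 and 1 in the day 10 libraries, and none at days 7 and 14, in all 8 reads of 250823570. A count of 0 allows up to 0.0486 CPM at day 7 and 0.0485 CPM at day 14, taking 3 reads over both libraries of a day as the limit, for counting error only. In the sort it had 1 count in 1 CD61low library and none in the other 5. No fold is given, and Cyp24a1 missed the filter of both tests, so 9 of the 10 genes were tested.

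The calls among the 9 tested genes are given beside the share of all genes called. From day 1 to day 7, 2 of the 9 tested genes were called higher (Bglap and Bglap2) and 1 lower (Gas6), where 4.49% of all genes tested were called higher and 4.62% lower. From day 7 to day 10, 3 were called higher (Bglap, Bglap2 and Gas6) and 0 lower, against 1.43% and 0.786% of all genes. At an unadjusted p under 0.05 limma had 1 lower, Mgp, which the edgeR test of recovered reads called. After quantile normalization 131 genes were called higher and 132 lower in this comparison, against 182 and 100. From day 10 to day 14, 0 were called higher and 1 lower (Bglap), against 2.09% and 0.872% of all genes. Here limma had 2 higher at an unadjusted p under 0.05, Mgp and Vdr, and the edgeR test called 0 higher. From day 1 to day 14, 3 were called higher (Bglap, Bglap2 and Vdr) and 0 lower, against 7.51% and 5.9%. In that comparison limma also called 6 of 9 tested osteoblast and osteocyte markers higher, namely Dmp1, Phex, Sost, Ibsp, Alpl and Sp7, and their part in the results was not tested. Limma had 1 lower at an unadjusted p under 0.05, Gas6, and the edgeR test called 0 lower. An unadjusted p under 0.05 was common over the days, where limma gave it to 24.9% to 40.5% of all genes tested in each direction of a comparison. The median Log2FC of the 9 genes was 0.46, 0.50, -0.29 and 0.39 in these comparisons, where that of all genes was -0.05, 0.07, -0.04 and -0.03.

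**Figure D2:**
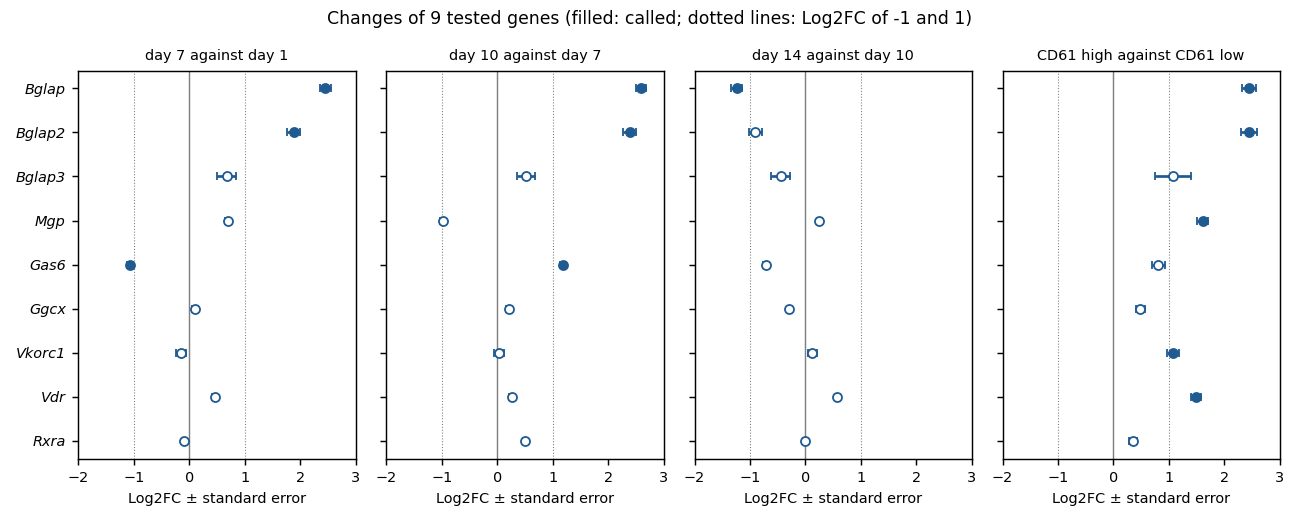
Log2FC with its standard error (horizontal axes) of the 9 tested genes (rows) for the 3 steps between days (limma, log2(CPM + 1)) and for CD61high against CD61low (edgeR); filled circles were called and dotted lines mark Log2FC of -1 and 1. Bglap and Bglap2 lie beyond 1 in the first 2 steps and in the sort, and all 9 genes lie above 0 in the sort.

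Levels can be compared between genes only per length. With CPM divided by the gene length in the deposited table, Mgp led at day 1 with 174 ± 1.80 CPM per kb, ahead of Gas6 at 23.6 ± 0.304, Ggcx at 18.5 ± 0.953, Rxra at 18.1 ± 0.237, Vkorc1 at 13.8 ± 1.25 and Vdr at 6.44 ± 0.0353 CPM per kb. Bglap was at 1.11 ± 0.338 CPM per kb. At day 10 Mgp was at 142 ± 7.24 CPM per kb and Bglap came next with 88.2 ± 0.681, followed by Bglap2 with 47.8 ± 0.999 CPM per kb. At day 14 the order was Mgp (169 ± 12.5 CPM per kb), Bglap (36.4 ± 0.643), Bglap2 (24.6 ± 1.52) and Rxra (23.8 ± 0.186). Of the 4 leading genes, the levels of Bglap2 and Rxra at day 14 were within 1 SD of each other. The order depends on the lengths used. That of Bglap was 614 bases, where the transcript with most of its counts in the sort has 440. How reads that map to several osteocalcin copies were handled is not given, so the place of these genes in the order is uncertain.

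In sorted cells all 9 tested genes were higher on average in CD61high than in CD61low cells, and 5 were called higher by edgeR's quasi-likelihood test: Bglap, Bglap2, Mgp, Vkorc1 and Vdr. Of all 12077 genes tested, 4.84% were called higher and 4.37% lower. None of the 9 was called lower by edgeR or by DESeq2, and 0 were lower at an unadjusted p under 0.05, where 27.3% of all genes were. Their median Log2FC was 1.08, against 0.00 for all genes. Values are TMM-normalized CPM, and TMM factors were 1.10 to 1.13 in CD61low and 0.895 to 0.909 in CD61high libraries. With library size alone the median of all genes moved to -0.29 and the calls to 316 higher and 963 lower, in place of 585 and 528, while all 9 genes kept a positive Log2FC.

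Bglap was at 26.2, 20.3 and 21.5 CPM in the CD61low libraries and at 108, 142 and 122 CPM in the CD61high libraries, and Bglap2 at 32.2, 22.1 and 27.6 CPM and at 129, 161 and 156 CPM. The groups were far apart for both genes. The Log2FC was 2.45 ± 0.12 for Bglap (edgeR adjusted p = 3.43e-07) and 2.44 ± 0.14 for Bglap2 (edgeR adjusted p = 5.65e-07). Bglap3 was at 1.44, 0.798 and 0.879 CPM in CD61low and 2.64, 1.497 and 2.47 CPM in CD61high libraries. Its ranges did not overlap, yet with 17 to 45 counts per library its Log2FC of 1.08 ± 0.33 had an edgeR adjusted p of 0.0186 and was not called. It was called without CD61high replicate 2, at 1.30. The osteocalcin sum was at 51.0 ± 8.36 CPM (SD, n = 3) in CD61low and 275 ± 32.9 CPM in CD61high libraries, a 5.39-fold ratio.

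Mgp was at 41.1, 32.7 and 33.5 CPM in CD61low and 99.6, 117 and 110 CPM in CD61high libraries, a Log2FC of 1.61 ± 0.10 (edgeR adjusted p = 1.21e-06). Gas6 was at 33.2, 32.7 and 26.0 CPM against 47.5, 57.5 and 56.4 CPM, which do not overlap, but its Log2FC of 0.81 ± 0.11 (edgeR adjusted p = 2.00e-04) did not pass the fold threshold and was 0.51 with library size alone. Of the vitamin K enzymes, Vkorc1 rose from 26.8, 25.0 and 25.8 CPM to 45.996, 57.3 and 60.6 CPM, a Log2FC of 1.08 ± 0.11 (edgeR adjusted p = 1.92e-05). This call lies near the threshold. The Log2FC was 0.99 without CD61high replicate 3 and 0.78 with library size alone, where the median of all genes stood at -0.29, and a test against a Log2FC of 1 did not call it. Ggcx was at 62.6, 56.5 and 60.8 CPM against 85.7, 79.3 and 87.2 CPM, with a Log2FC of 0.49 ± 0.07 (edgeR adjusted p = 3.77e-04), which was 0.19 with library size alone (edgeR adjusted p = 0.0438).

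Vdr was at 48.0, 44.5 and 53.1 CPM in CD61low and 146, 125 and 137 CPM in CD61high libraries. Its Log2FC was 1.49 ± 0.09 (edgeR adjusted p = 8.42e-07), and the lowest CD61high library exceeded the highest CD61low library. Rxra was at 113, 110 and 120 CPM against 154, 141 and 141 CPM, with a Log2FC of 0.34 ± 0.07 (edgeR adjusted p = 0.00269), the smallest of the 9. With library size alone its Log2FC was 0.04. Of 9 tested markers of osteoblasts and osteocytes, edgeR called 8 higher in CD61high cells, where 4.84% of all genes tested were called higher. Col1a1, at 17664 and 44785 CPM by group means, made up most of their sum, and Pdpn, the ninth, went the other way at 15.5 and 11.1 CPM. Of 3 tested chondrocyte genes, Sox9 (36.7 and 94.5 CPM) and Col2a1 (0.556 and 2.00 CPM) were called higher, against the same share of all genes. Acan was at 5.77 and 7.34 CPM. The part of these markers in the differences above was not tested.

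**Figure D3:**
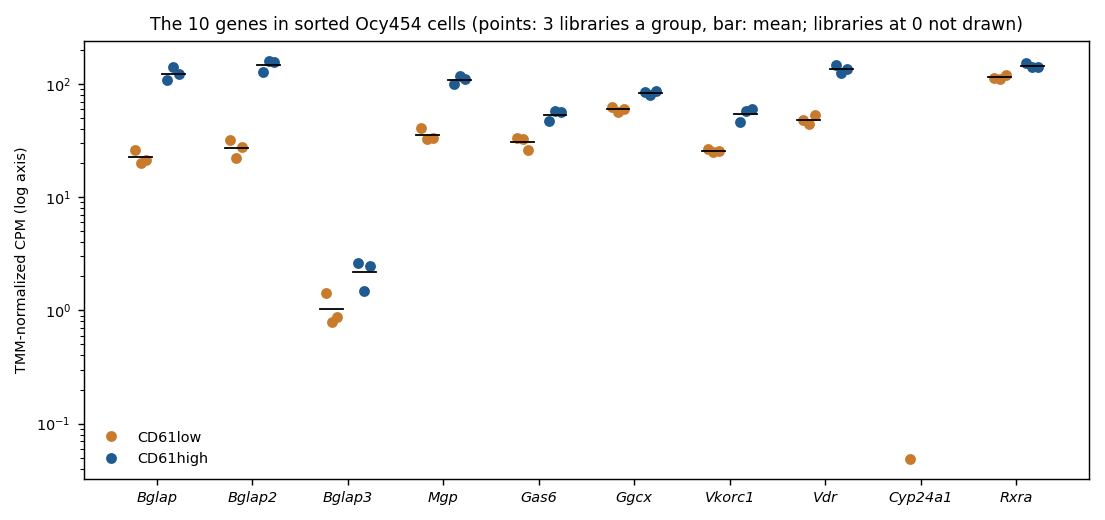
TMM-normalized CPM on a log axis (vertical) of the 10 genes (horizontal) in the 3 CD61low and 3 CD61high libraries; points are libraries, bars are means and libraries at 0 are not drawn. For each of the 9 tested genes the 3 CD61high points lie above the 3 CD61low points, and Cyp24a1 shows a single CD61low library.

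Per length, in TPM (read counts scaled by effective length and library total) as Salmon gave them, Bglap2 and Bglap led and Bglap3 came last of the 9 tested genes in the sorted cells. In CD61low cells Bglap2 was at 181 ± 31.7 TPM (SD, n = 3), Bglap at 176 ± 19.4, Mgp at 151 ± 15.5, Vkorc1 at 92.1 ± 2.78, Rxra at 56.0 ± 11.3, Ggcx at 42.9 ± 3.39, Gas6 at 22.4 ± 2.43, Vdr at 22.1 ± 3.20 and Bglap3 at 2.10 ± 0.340 TPM. Neighbours overlapped in this order except Vkorc1 with either neighbour, Ggcx with Gas6, and Bglap3 with Vdr. In CD61high cells the order was the same down to Rxra, and Bglap2 was at 788 ± 50.5 TPM, Bglap at 762 ± 58.4, Mgp at 368 ± 13.0, Vkorc1 at 158 ± 17.7, Rxra at 59.1 ± 4.25, Vdr at 50.1 ± 6.62, Ggcx at 48.0 ± 3.22, Gas6 at 31.6 ± 2.48 and Bglap3 at 4.59 ± 1.95 TPM. Vdr thus stood below Ggcx in CD61low and above it in CD61high cells by the means, although the libraries of these 2 genes overlapped in CD61high cells. TPM carries no TMM factor, and on this scale the ranges of CD61low and CD61high libraries overlapped for Rxra (44.1 to 66.6 against 54.6 to 63.0 TPM), Ggcx (39.4 to 46.2 against 44.3 to 50.2 TPM) and Bglap3 (1.74 to 2.42 against 2.40 to 6.16 TPM).

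The split of osteocalcin reads among the copies differed between the 2 kinds of processing. In the 6 libraries of days 7 to 14, mapped with STAR and counted with HTSeq, Bglap took 63.7% to 69.6% of the reads of the 3 genes, and the Bglap to Bglap2 ratio lay between 1.84 and 2.54. In the 6 sorted libraries, quantified with Salmon, Bglap took 43.0% to 47.0%, and the ratio lay between 0.779 and 0.917. Bglap3 took 1.68% to 7.30% in the first set and 0.492% to 2.40% in the second. The sets share no library and differ in processing, day, sorting and RNA kit, so these cannot be told apart. Within the sort, the Bglap share was 43.0% to 47.0% in CD61low and 43.5% to 46.6% in CD61high libraries, ranges that overlap. The Bglap3 share was 1.76% to 2.40% in CD61low and 0.492% to 1.10% in CD61high libraries, ranges that do not. Whether the shares differ was not tested.

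**Figure D4:**
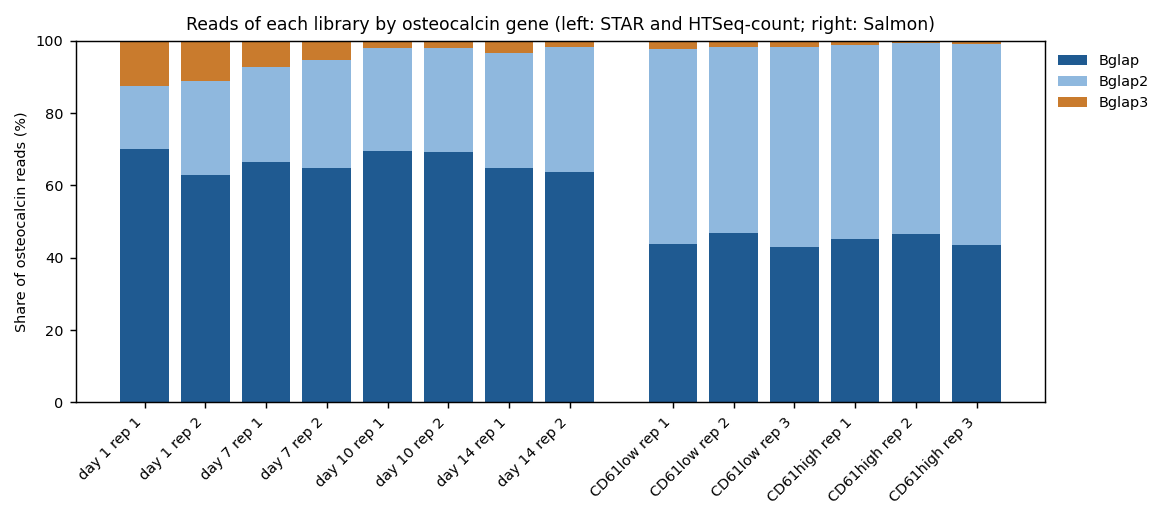
Share in percent (vertical axis, 0 to 100) of the reads of the 3 osteocalcin genes that went to Bglap, Bglap2 and Bglap3 in each library (bars); the 8 differentiation libraries are on the left and the 6 sorted libraries on the right. Bglap takes at least 63.0% in every differentiation library and at most 47.0% in every sorted one.

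Transcripts were resolved in the sort alone. A single protein-coding transcript held nearly all estimated counts of most genes, with 93.8% to 96.5% for Bglap, 96.3% to 99.1% for Mgp, 90.3% to 95.6% for Ggcx, 95.4% to 100% for Vkorc1, 98.8% to 99.9% for Vdr and 96.6% to 100% for Rxra. Gas6 and Bglap2 have 1 transcript each in these files. The counts of Bglap3 were spread over 5 transcripts, and its longest, of 2051 bases, held 30.1% to 64.4% of them. The rest of the Bglap counts, 3.53% to 6.24%, went to a retained-intron transcript.

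Other genes of the pathways were read from lists of known members, chosen with earlier results of these data known. Of 13 other genes of Gla or Gla-related proteins, 6 were tested over the days. Postn (periostin) fell from 1670 ± 66.1 CPM (SD, n = 2) at day 1 to 263 ± 4.55 CPM at day 7, a Log2FC of -2.66, and it had a Log2FC of -2.99 at day 14 against day 1. F7, coagulation factor VII, rose between days 7 and 10 from 0.432 ± 0.186 to 3.24 ± 0.119 CPM, a Log2FC of 1.57. It was at 1.54 ± 0.193 CPM at day 14, and the step from day 10 was called lower by the edgeR test of recovered reads (-1.02) but not by limma (-0.74). For day 14 against day 1 the edgeR test of recovered reads also called F7 higher (2.35), as well as F10, coagulation factor X, which had no reads at day 1 and 1.00 ± 0.178 CPM at day 14. That test called F10 higher at day 14 than at day 10 as well (1.80). F7 passed the filter of 1 CPM only at days 10 and 14, and F10 only at day 14. These are the days where each was high, so no conclusion is drawn from the calls of F7 and F10. In limma the Log2FC of F7 and F10 for day 14 against day 1, 0.96 and 0.997, missed the fold threshold. None of the 4 tested in the sort was called by edgeR or DESeq2, 2 were higher at an unadjusted p under 0.05 (29.3% of all genes were), and the highest of them there, Postn, had a Log2FC of 0.67 ± 0.07 (edgeR adjusted p = 2.64e-05). None of the 5 genes of the vitamin K cycle and supply was called in any comparison by limma, edgeR or DESeq2. At an unadjusted p under 0.05, 1 was higher and 3 were lower at day 14 than at day 1, against 36.8% and 40.5% of all genes, and 1 was higher and 2 were lower in CD61high cells, against 29.3% and 27.3%. Calu, the calumenin gene whose product inhibits the carboxylase, had the highest level of them, between 1389 and 1515 CPM by day means, with a Log2FC of 0.08 ± 0.04 at day 14 against day 1 and 0.42 ± 0.06 in the sort.

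Of the 3 TAM receptor genes for GAS6, Mertk, which encodes a receptor kinase of phagocytic clearance, rose from 7.61 ± 0.111 CPM at day 1 to 21.9 ± 2.02 CPM at day 14, a Log2FC of 1.41. Axl, the highest of the 3 in CPM not divided by length, went the other way without being called. It was at 286 ± 3.85 CPM on day 1 and 159 ± 8.36 CPM on day 14 (Log2FC -0.84). In the sort Axl had a Log2FC of -0.64 ± 0.07 (edgeR adjusted p = 2.51e-05). Mertk had 0.61 ± 0.19 there (edgeR adjusted p = 0.0207) and Tyro3 0.06 ± 0.07, and none of the 3 was called. Of all genes tested, 7.51% were called higher at day 14 than at day 1, and 4.84% in the sort. The edgeR test of recovered reads called Mertk higher already at day 7 than at day 1 (1.13), where limma did not (0.99). For vitamin D activation, transport and uptake, 5 of 7 genes were tested over the days. Cubn, the cubilin gene, fell by 1.43 on the log2 scale from day 1 to day 7 and was 1.19 lower at day 14 than at day 1 on that scale, from 3.43 ± 0.599 to 0.953 ± 0.400 CPM. Cyp27b1, which encodes the 1-alpha-hydroxylase that makes the active hormone, did not move in 1 direction. It was at 3.47 ± 0.859 CPM at day 1, 1.45 ± 0.736 CPM at day 7, 3.08 ± 0.880 CPM at day 10 and 1.08 ± 0.0380 CPM at day 14. Limma called it lower at day 14 than at day 1, with a Log2FC of -1.09, and called no single step. The edgeR test of recovered reads called each step, with -1.24, 1.05 and -1.45. That test also called Lrp2, the megalin gene, lower than at day 1 both at day 7 (-2.28) and at day 14 (-2.18), from 0.989 ± 0.0209 CPM to 0.198 ± 0.0682 and 0.204 ± 0.0827 CPM, where limma did not. Lrp2 passed the filter of 1 CPM only at day 1, where it was high, so no conclusion is drawn from its calls. None of the 4 genes tested in the sort was called by edgeR or DESeq2. There 1 was higher and 1 lower at an unadjusted p under 0.05, where 29.3% and 27.3% of all genes were. The highest there, Dhcr7, which uses up a vitamin D precursor in cholesterol synthesis, had a Log2FC of 0.96 ± 0.08 (edgeR adjusted p = 6.66e-06). Cyp27a1 (-1.04 ± 0.40), Cyp27b1 (-0.68 ± 0.32) and Cubn (-0.56 ± 0.41) went the other way, and the median of the list was -0.62. None of the 8 tested partners and coregulators of VDR was called in any comparison by limma, edgeR or DESeq2. At an unadjusted p under 0.05, 5 were higher and 2 lower at day 14 than at day 1, and 3 were higher and 1 lower in CD61high cells, to be read against the same shares of all genes (36.8% and 40.5%, then 29.3% and 27.3%). Ncor1, a corepressor, was the highest by mean, with 345 ± 49.0 CPM in CD61low cells and a Log2FC of 0.02 ± 0.13 in the sort.

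Of 10 known vitamin D target genes, 6 were tested over the days and 5 in the sort. Of these, 2 were called higher at day 14 than at day 1, where 7.51% of all genes were, and 2 in the sort, where 4.84% were. Cdkn1a, the p21 cell cycle inhibitor, rose from 30.3 ± 1.39 CPM at day 1 to 427 ± 5.77 CPM at day 7 (Log2FC 3.78) and was at 494 ± 18.7 CPM at day 14 (3.99 against day 1). Lrp5, a Wnt coreceptor, rose from 64.0 ± 2.27 to 386 ± 6.10 CPM between days 1 and 14 (Log2FC 2.57), with 1.69 of this by day 7, and it rose by 1.57 in the sort. Spp1, which encodes osteopontin, rose by 1.31 between days 7 and 10 and by 1.79 in the sort, from 127 ± 11.1 to 442 ± 21.5 CPM (SD, n = 3). Between days 10 and 14 it had a Log2FC of -0.42 and was not called. Cdkn1a had a Log2FC of 0.77 ± 0.08 in the sort and was not called. The other 3 tested members were not called in any comparison by limma, edgeR or DESeq2. At day 14 against day 1 Enpp1 had a Log2FC of 0.55, Atp2b1 of 0.44 and Tnfsf11 of 0.06, and in the sort Enpp1 had 0.83 and Atp2b1 0.20, while Tnfsf11 was not tested there. These are genes known to respond to VDR in some cells, and the list covers a small part of such genes.

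Transcription factors known at the osteocalcin promoter were called mainly in the first step and in the sort. Of the 6 tested over the days, 4 rose from day 1 to day 7: Dlx3 (Log2FC 4.77), Sp7 (2.45), Dlx5 (1.20) and Runx2 (1.03), where 4.49% of all genes tested were called higher. None was called by limma from day 7 to day 10 or from day 10 to day 14. The edgeR test of recovered reads called none there either, while 3 higher and 2 lower, then 3 higher and 3 lower, had an unadjusted p under 0.05. Of all genes, 38.8% higher and 24.9% lower, then 29.0% higher and 37.3% lower, had one. Atf4 had a Log2FC of 0.26 ± 0.04 from day 7 to day 10. In limma, the homeobox gene Dlx3 was at 83.1 ± 2.24 CPM at day 7 and 52.7 ± 4.65 CPM at day 10, with a Log2FC of -0.65, and Runx2 at 334 ± 10.2 and 347 ± 6.12 CPM, with 0.06. From day 1 to day 14 Dlx3, Sp7 and Dlx5 were called higher. In the sort 4 of 7 were called higher, namely Dlx5 (1.78), Sp7 (1.65), Dlx3 (1.32) and Runx2 (1.23), where 4.84% of all genes tested were called higher. The other 3 had negative values that were not called, with -0.57 ± 0.07 for Atf4 (edgeR adjusted p = 7.92e-05), -1.04 ± 0.41 for Msx2 (edgeR adjusted p = 0.0549) and -0.13 ± 0.07 for Cbfb (edgeR adjusted p = 0.155). Msx2 was under 1 CPM in each group by its mean and was not tested over the days, where Cbfb was not called. The median Log2FC of this list was 1.11 for day 7 against day 1 and 1.23 in the sort, where that of all genes was -0.05 and 0.00. The list was chosen with earlier results of these data known, and a gene first placed in it was left out. Its counts and medians are therefore a description, not a test of the list. Gprc6a, a proposed osteocalcin receptor, missed the filter of both tests.

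**Figure D5:**
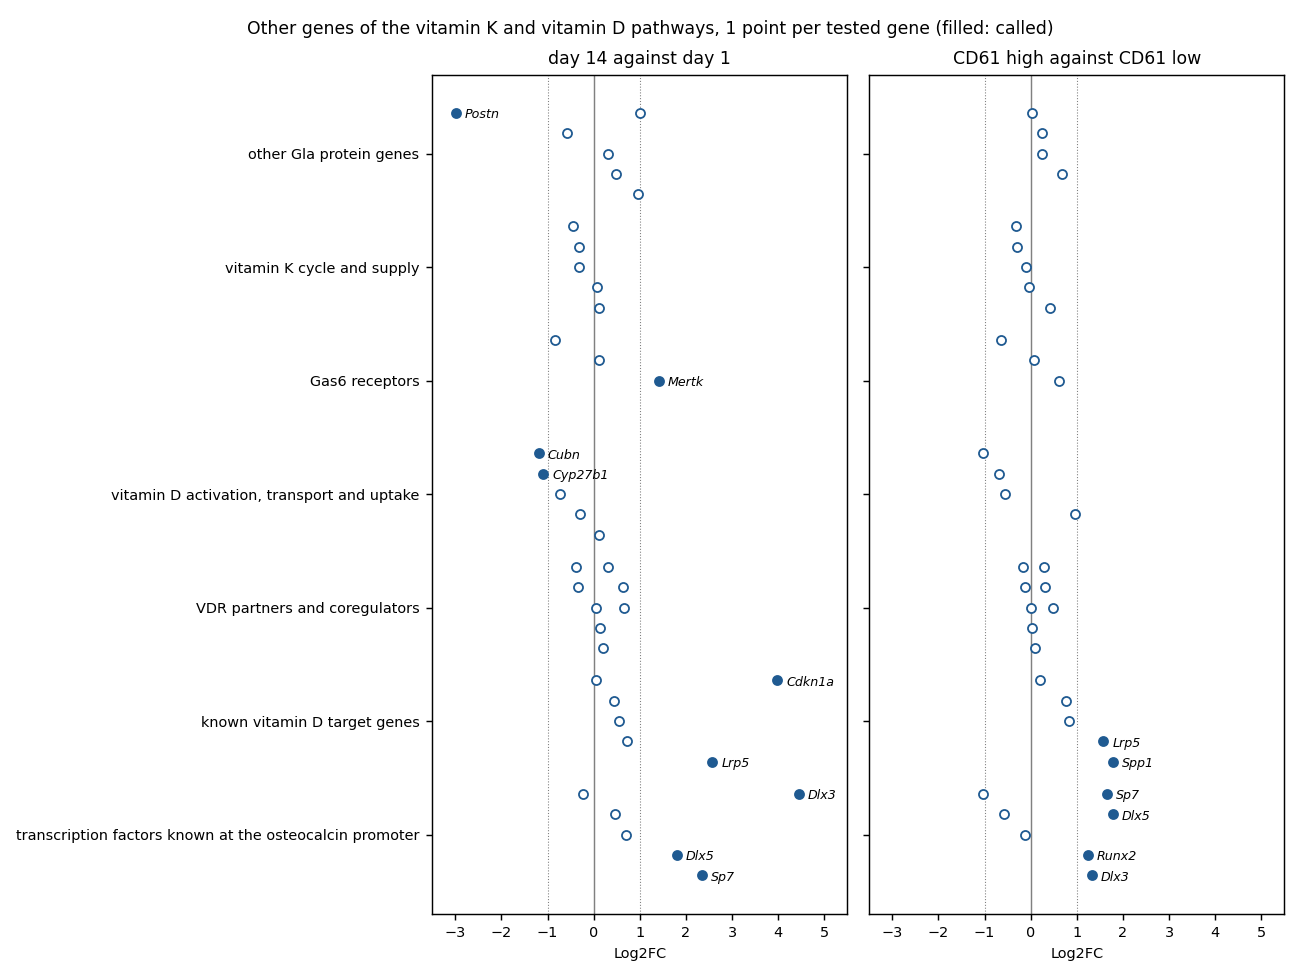
Log2FC (horizontal axes) of each tested gene of 7 lists (rows; points are staggered vertically for legibility) for day 14 against day 1 (left, limma) and CD61high against CD61low (right, edgeR); filled points were called and are named, and dotted lines mark Log2FC of -1 and 1. Postn at -2.99 and Dlx3 at 4.45 lie farthest out on the left, and no point of the vitamin K list or of the VDR partner list is filled.

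Genes with a course like that of Bglap, Mgp or Vdr were named by Pearson's r of log2(CPM + 1) over all 14 libraries, centred within each experiment, among the 9865 genes that averaged 5 CPM or more in both. Libraries of one group share their condition, so r is a description. Nearest to Bglap were Rnf167 (r = 0.996), Bglap2 (0.994) and H1f0 (0.989). Bglap and Bglap2 are near-identical copies whose reads can be hard to assign, so no conclusion is drawn from their r. Rnf167 had day means of 27.5, 45.8, 80.4 and 62.6 CPM and sorted means of 59.9 CPM in CD61low and 100.4 CPM in CD61high cells, so it shared the order of the levels but spanned a far smaller fold. Nearest to Vdr were Prr5l (0.990), Fbxl14 (0.984) and Entrep1 (0.984), the last of which had day means of 4.76, 9.17, 16.7 and 27.5 CPM. Nearest to Mgp were Bag6 (0.969), Phb2 (0.969) and Pabpc4 (0.968). Bag6 had day means of 349, 378, 352 and 344 CPM. It was highest at day 7 like Mgp, but it spanned a far smaller fold and was lowest at day 14, not day 10. Phb2 had day means of 191, 221, 182 and 197 CPM, and Pabpc4 of 62.9, 82.9, 59.2 and 62.0 CPM.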

How the data were processed

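RNA of Ocy454 cells was sequenced in 8 differentiation and 6 sorted libraries. The study's methods name polyA selection for the sorted libraries. Per the labels and the study's methods, the authors mapped the differentiation reads with STAR, counted them with HTSeq and deposited CPM per gene of 39179 genes, and they quantified the sorted libraries with Salmon on GRCm39 transcripts, depositing estimated counts and TPM per transcript. Tool versions and the handling of multimapped reads are not given in the sources used here. The deposited CPM were whole multiples of 1 read for 100% of values (tolerance 0.01 reads), which gave the depth of each library, 27518605 to 34311238 reads. Sorted libraries held 18815602 to 19220064 estimated counts, which were summed per gene and rounded. No column of the files was left unmapped to a sample. TPM were summed per gene without rescaling.

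Differentiation was tested with limma (3.58.1) on log2(CPM + 1), with a trend, over the 12725 genes above 1 CPM in at least 1 library, all 8 libraries in the fit. The sort was tested with edgeR (4.0.16, R 4.3.3) quasi-likelihood on counts with TMM over all genes, then a filter of at least 5 normalized counts in all 6 libraries, which left 12077 genes. Standard errors in edgeR are the Log2FC divided by the root of F. A gene was called at an adjusted p (Benjamini-Hochberg) below 0.01 and a Log2FC beyond 1. DESeq2 (1.42.0), other scalings, filters and pseudocounts, left-out libraries, a replicate block and summed osteocalcin genes were alternatives. Errors are SDs between libraries or standard errors of the fits, and the limit given for a count of 0 covers counting error only.

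Named genes are the 10 members, list genes called in a comparison or, where none was, the highest by mean CPM. Some list genes that were not called are named beside them. For Bglap, Mgp and Vdr the 3 genes with the highest r are also named. The members and lists were chosen with earlier results of these data known, and 1 gene first placed in the transcription factor list was left out and is not reported here, so the counts and medians of that list cover only the genes that remain. A promoter table and a transcript set were used for sequences, RefSeq on GRCm38.p6 and GENCODE M39 on GRCm39.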

Additional observations from a re-analysis of the deposited data

How the results depend on the processing

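Of 810 alternative values for 60 results, 782 kept their direction and their side of the threshold or, for counts of the 10 genes called, stayed within 1.5 times the count. Such counts of genes called higher went from 2 to 3 (day 7 against day 1) and from 3 to 4 (day 14 against day 1) with a pseudocount of 0.1 and with edgeR on recovered reads, through Bglap3. In the sort they went from 5 to 4 with library size alone and in a test against a Log2FC of 1, and to 6 at an adjusted p below 0.05. With 2 or 3 libraries a group, changes of under about 2-fold were not called by design of the threshold. Bglap3 had 5 and 3 reads in the day 1 libraries, and its calls from day 1 differed between scales. Cyp24a1 had 8 reads over the days. From day 7 to day 10 the number of the 10 genes called lower went from 0 to 1, Mgp, after quantile normalization (-1.03), with edgeR on recovered reads (-1.07) and without day 7 replicate 2 (-1.003) or day 10 replicate 1 (-1.04), and the range without 1 library was 0 to 1. The 11 reversals were all of values near 0, none with an adjusted p under 0.315. For Vkorc1, day 10 against day 7 turned to -0.0438 after quantile normalization and -0.0285 with edgeR, and ranged from -0.0151 (without day 7 replicate 1) to 0.0883 with 1 library left out. Its day 14 against day 1 turned to -0.0342 after quantile normalization and ranged from -0.0719 (without day 1 replicate 2, and negative also without day 14 replicate 1) to 0.0999. For Rxra, day 14 against day 10 turned to 0.0273 after quantile normalization and 0.0474 with edgeR, and ranged from -0.0306 to 0.00613 (without day 10 replicate 2). Day 14 against day 1 ranged from -0.0296 (without day 1 replicate 1) to 0.0739 for Ggcx and from -0.118 to 0.0318 (without day 14 replicate 2) for Mgp. The cause was not tested. In the sort the number called higher ranged from 4 to 6 without 1 library, through Vkorc1 (0.99 without CD61high replicate 3) and Bglap3 (1.30 without CD61high replicate 2). At an adjusted p below 0.05 Bglap3 was also called in the sort.

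Counts over all genes were larger with edgeR on recovered reads, at 876 higher and 767 lower from day 1 to day 7 (571 and 588 by limma), 334 and 216 from day 7 to day 10 (182 and 100), 504 and 227 from day 10 to day 14 (266 and 111) and 1339 and 953 from day 1 to day 14 (956 and 751). DESeq2 called 587 higher and 539 lower in the sort. Same-numbered libraries did not deviate together, with correlations of -0.03 to 0.06 over the days and of -0.247, 0.157 and -0.0471 in the sort, so the numbers were not taken as pairs. Differently numbered CD61low and CD61high libraries had correlations of -0.317 to 0.367. Which libraries came from the same group of cells is not given in the sources used here, so pairs under other numbers were not tested. The replicate block joins only libraries of the same number. With a replicate block the sort had 574 higher and 509 lower, the counts over the days were unchanged, and none of 60 values of the 10 genes and their counts changed its call. The length offset was not run for the osteocalcin sum. Cyp24a1 missed the filters and has no fitted value.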
